A study of Mus musculus with 6 samples.

Results

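The cells described here are those that the authors' annotation calls Ctla2a, in the uterus of 12-month-old female CD-1 mice that received corn oil as newborns. They were taken as the barcodes of the corn oil library that carry this cell type name, passed the authors' quality filter and have counts, which gave 465 cells among 12253 annotated cells of that library and 48699 cells in the series. A further 12 cells bore the name but had no counts. None of the 465 barcodes occurred in the other single-cell library, although 180 barcodes of the library did. The corn oil (CO) library was made from the pooled uterine horns of 2 mice, injected on days 1 to 5 after birth with the vehicle. The diethylstilbestrol (DES) library was made from 4 pooled mice given 1 mg/kg/day of this synthetic estrogen on the same days, and no cell of it was called Ctla2a. Spatial RNA was measured in 4 sections, each of a different mouse, with 2 per treatment, from blocks that a pathologist had examined, in the DES group for uterine adenocarcinoma, and that were cored to areas of interest. All mice were 12 months old, the strain was CD-1 throughout, and because each single-cell library pooled its mice, no value below can be assigned to an animal.

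The gene Ctla2a encodes a small protein that resembles the propeptide of cysteine proteases and inhibits cathepsin L. It was first found in activated T lymphocytes and mast cells, and is also made in endothelium and in uterine tissue. The stroma beneath the uterine epithelium is made of Pdgfra-positive fibroblasts that carry estrogen and progesterone receptors, answer to the hormones of the cycle and change into decidual cells in pregnancy. Beyond it lie the circular and longitudinal smooth muscle layers, the vessels with their pericytes, and the mesothelium that covers the organ.

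Ctla2a (chromosome 13, 60934155 to 60936625, minus strand) and its paralog Ctla2b (chromosome 13, 60895350 to 60897447, minus strand) are neighbouring genes in the GENCODE M21 annotation of GRCm38. The 250 bases before the start of each are shown because these genes differed so widely in level in the same cells. For Ctla2a the table gives 2 starts and the first is shown. Both windows are on the minus strand of GRCm38.p6 as given by RefSeq, at chr13:60936626-60936875 for Ctla2a and chr13:60897448-60897697 for Ctla2b, and capitals mark TGACGTC, searched on both strands.
Ctla2a: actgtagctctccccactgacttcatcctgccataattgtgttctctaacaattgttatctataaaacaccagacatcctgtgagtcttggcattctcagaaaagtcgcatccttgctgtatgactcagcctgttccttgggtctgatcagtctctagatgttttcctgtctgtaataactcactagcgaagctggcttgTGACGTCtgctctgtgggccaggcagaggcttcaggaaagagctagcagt
Ctla2b: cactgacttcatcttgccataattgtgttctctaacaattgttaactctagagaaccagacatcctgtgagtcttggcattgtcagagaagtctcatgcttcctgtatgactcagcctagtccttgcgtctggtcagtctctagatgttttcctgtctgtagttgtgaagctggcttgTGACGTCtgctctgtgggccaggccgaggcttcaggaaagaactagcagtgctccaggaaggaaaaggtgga
The windows aligned over 236 columns, of which 208 were identical (88.1%). Each held TGACGTC once, and 2.78% of the 32851 promoter windows of the RefSeq table held it on either strand. In the Ctla2a cells 103027 unique molecular identifiers (UMIs) were counted for Ctla2a and 19 for Ctla2b. Reads that match both genes could have been assigned to either or to neither, so the level of Ctla2b is uncertain.

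Ctla2a was the most abundant transcript of these cells and took 3.69% of all their UMIs. Levels are given as CPM, the UMIs of a gene over all cells of a type scaled to a total of 1000000 UMIs, and the intervals, which are exact Poisson 95% intervals, cover counting error only. Ctla2a stood at 36929.8 CPM (36704.6 to 37156.0) in Ctla2a cells, 3110.2 in endothelial cells, 731.0 in lymphocytes, 567.1 in stromal cells, 311.0 in myocytes and 255.3 in pericytes. It was lower in mesothelial cells, at 162.1 CPM, in myeloid cells, at 51.9, and in epithelial cells, at 31.5. In lymphocytes the median cell held no Ctla2a UMI, and the share of UMIs was 0.0901% at the 90th percentile and 4.34% at most. The next highest level was thus in endothelium, over which Ctla2a cells were 11.9-fold (11.6 to 12.2) higher.

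In single cells the Ctla2a share of UMIs ran from 1.46% at the 10th percentile through a median of 3.40% to 5.96% at the 90th percentile, with a highest value of 12.6%. The gene was the most abundant one in 271 of the 465 cells (58.3%) and had no UMI in 1 cell. Only 9 of 1326 stromal cells and 0 of 341 endothelial cells reached the 10th percentile of Ctla2a cells. The median share was 0.0109% in stromal and 0.285% in endothelial cells. The Ctla2a cells were thus separated from endothelium by level and not by presence of the transcript, since after thinning each cell to 3000 UMIs 96.3% of endothelial cells held at least 1 Ctla2a UMI. The thinned share was 99.8% in Ctla2a cells, 39.3% in stromal cells, 33.55% in lymphocytes and 7.07% in epithelial cells, the type with the lowest level, whose cells were the deepest (median 23458.0 UMIs). Without thinning these shares were 99.8%, 59.0%, 40.4% and 45.5%.

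The other marker genes of the label were Rgs2, Pi15, Enpp2, Ednrb and Rxfp1. Rgs2, which speeds up GTP hydrolysis by Gq proteins and so dampens signals from vasoconstrictor receptors, stood at 1213.3 CPM (1172.8 to 1254.9), against 64.2 in stromal cells and 209.3 in myeloid cells, the next highest type. Ednrb, the endothelin B receptor, stood at 630.2 CPM (601.0 to 660.3) against 9.88 in stromal cells, 229.8 in pericytes and 142.3 in endothelium. Both genes were thus far above stroma, while Ednrb was shared with the cells of the vessel wall.

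Pi15, a secreted protein of the CAP family, stood at 421.2 CPM (397.4 to 446.0) against 20.1 in stromal cells and 67.5 in myocytes. Enpp2, autotaxin, which makes lysophosphatidic acid, stood at 142.7 CPM (129.0 to 157.4) against 41.15 in stromal cells, 90.8 in pericytes and 54.8 in endothelium. Rxfp1, the relaxin receptor, did not set these cells apart from stroma, with 783.9 CPM (751.4 to 817.5) against 655.6 (stromal), 374.5 (pericytes) and 271.7 (myocytes).

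In cells thinned to 3000 UMIs, Rgs2 was found in 85.65% of Ctla2a and 14.8% of stromal cells, Pi15 in 60.8% and 4.76%, and Ednrb in 76.1% and 1.61%. Enpp2 was found in 33.0% and 10.4%, and Rxfp1 in 84.3% and 75.1%. Rgs2, Pi15 and Ednrb thus split the types as single cells too, and Rxfp1 did not.

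**Figure D1:**
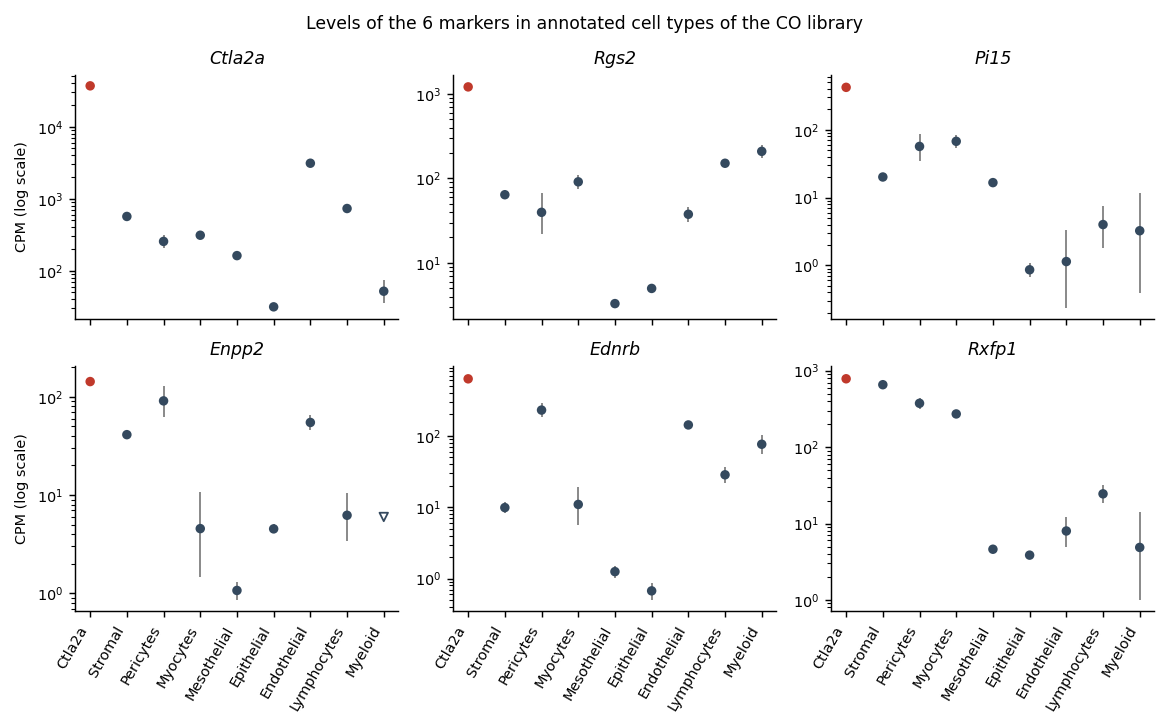
Level in CPM (log axis) of the 6 marker genes in each annotated cell type of the CO library with at least 50 cells, with bars for exact Poisson 95% intervals and an open triangle at the upper limit where no UMI was counted. Ctla2a cells (red) are highest for all 6 genes, by 11.9-fold over endothelium for Ctla2a and by 1.196-fold over stromal cells for Rxfp1.

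The markers met in the same cells. At least 1 UMI of every one of the 6 genes was present in 165 of 465 Ctla2a cells (35.5%, exact 95% interval 31.13 to 40.02), and at least 4 of the 6 in 436 (93.8%). All 6 were present in 3 of 1326 stromal cells (0.226%) and at least 4 in 85 (6.41%), although the median stromal cell held more UMIs, 8726.5 against 5763.0. At least 4 were also present in 16 of 85 myocytes (18.8%) and 5 of 75 pericytes (6.67%), and all 6 in 1 myocyte and 0 pericytes. Of 16312 DES cells 0 held 5 or 6 of the genes, a count for which the limit is 0.0184%, and 1 cell held 4. The libraries differ in depth, with medians of 6779.0 UMIs (CO) and 10153.5 UMIs (DES). With 1 library per condition this difference has no replicate check. Only 1 stromal and 5 endothelial cells were annotated in the DES library. The paper reports that these types and pericytes were mostly missing from it, and considers poor release from matrix-rich tissue likely. The count of 0 thus covers recovered cells only, and loss of Ctla2a cells during dissociation was not tested.

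The DES library did hold the Ctla2a transcript in other cells. Its level was 76.15 CPM (74.0 to 78.3) in 3837 mesothelial cells, 171.2 in 239 lymphocytes, 22.55 in 228 myeloid cells and 1.06 in 5255 epithelial cells. The 5 endothelial cells of that library gave 649.4 CPM (449.7 to 907.4). Only 1 DES cell was annotated as stromal, so a comparison of stroma between the single-cell libraries could not be made.

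Markers of endothelium, pericytes, smooth muscle and immune cells were low or at 0 in the Ctla2a cells. Summed levels were 51.6 CPM for 6 endothelial markers against 3297.3 in endothelium, with Vwf at 0 and Pecam1 at 1.075 CPM. They were 46.2 CPM for 6 pericyte markers against 7270.6 in pericytes, and 323.0 CPM for 8 smooth muscle markers against 40217.5 in myocytes. Most of the muscle sum was Des (279.9 CPM), an intermediate filament gene found in many mesenchymal cells, while Myh11, the smooth muscle myosin, was at 1.79 CPM and Acta2 at 12.2. Of 6 lymphocyte markers 4 were at 0 (Cd3e, Cd3g, Trbc2 and Nkg7) and the sum was 5.38 CPM. Of 5 myeloid markers Csf1r, Adgre1 and C1qa were at 0.

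The 5 mesothelial markers summed to 340.9 CPM in Ctla2a cells, 162.8 in stromal cells and 2667.2 in mesothelium. Most of that sum was Wt1, a transcription factor of mesothelium, which was as high in Ctla2a cells (242.7 CPM, 224.7 to 261.7) as in mesothelial cells (239.3) and stood at 105.9 CPM in stroma. The 4 decidual markers summed to 54.8 CPM in Ctla2a and 180.8 in stromal cells.

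Fibroblast genes were present but uneven. The 8 stromal markers summed to 2984.8 CPM in Ctla2a cells and 12921.3 in stromal cells, with 21193.5 in mesothelial cells, 3696.3 in pericytes, 4737.2 in myocytes and 4972.3 in myeloid cells. Of the 8 markers 5 were at least 2-fold lower than in stroma and 1, Hand2, higher. Among all 3249 genes with at least 50 CPM in either type, 14.0% were lower and 5.36% higher. Because the 8 genes mark stroma, lower levels than in stromal cells are partly built into this count. Pdgfra, the receptor that marks uterine stroma, was at 213.3 CPM in Ctla2a cells and 265.3 in stromal cells, and Dpt (dermatopontin) at 183.9 and 265.0. Esr1, the estrogen receptor, was at 224.4 and 233.4 CPM. Of the genes that mark stroma in the study, Col6a3 was at 131.6 against 2024.7 CPM, Vcan at 48.4 against 207.5 and Foxl2 at 65.6 against 173.7. The 5 epithelial markers summed to 757.4 CPM in Ctla2a cells and 542.0 in stromal cells against 4744.6 in epithelium, and the part of this background in other values was not tested.

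Profiles of the cell types with at least 50 cells were compared over 6039 genes. On the log2 CPM scale the Ctla2a cells correlated most with stromal cells (Pearson's r = 0.901), then with pericytes (0.835), myocytes (0.829) and mesothelial cells (0.814), and least with lymphocytes (0.576). These correlations are across genes, share 1 library and are given as a description. When the annotated CO cells were clustered anew from the counts, 460 of the 465 cells (98.9%) fell into 1 cluster at each of 3 resolutions, together with 5 lymphocytes and 0 stromal cells. The names came from the same counts and cells without a name were left out, so this is no independent check of the label. Scrublet called 2 of the 465 cells doublets.

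Against the 1326 stromal cells of the same library, 174 of 3249 genes with at least 50 CPM in either type were at least 2-fold higher in Ctla2a cells (5.36%), and 456 were at least 2-fold lower (14.0%). The median ratio over all these genes was 0.941. The authors named the cell types from these counts, and the differences are therefore described and not tested. The genes lower in Ctla2a cells thus outnumbered the higher ones.

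**Figure D2:**
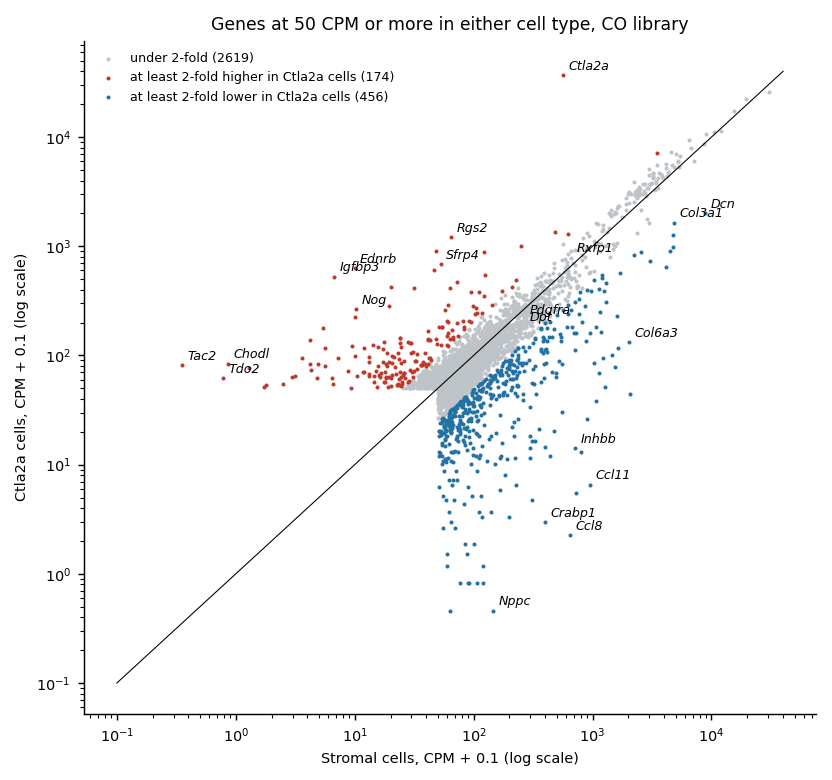
Each point is 1 gene with at least 50 CPM in either cell type, by its level in stromal cells (x axis) and Ctla2a cells (y axis), both as CPM + 0.1 on log axes. The 174 genes at least 2-fold higher in Ctla2a cells are red and the 456 at least 2-fold lower are blue, and the line marks equal levels.

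The 12 genes with the largest ratios over stroma include several with hardly any stromal UMI. Tac2, which encodes the tachykinin neurokinin B, was at 81.7 CPM (71.46 to 93.05) against 0.256, a ratio of 319.7 (95% interval 108.0 to 1561.9) that rests on few stromal UMIs. Chodl, the membrane lectin chondrolectin, was at 83.9 against 0.767 CPM, and Tdo2, the tryptophan dioxygenase, at 61.7 against 0.682. Igfbp3, which binds insulin-like growth factors, was at 525.8 against 6.65 CPM, but endothelial cells had 495.6. In stroma the first 3 of these genes were thus close to absent, while Igfbp3 was shared with endothelium.

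Zbtb16, a zinc finger factor induced by steroid hormones, was at 77.4 against 1.19 CPM in stroma. Arl4d, a small GTPase, was at 138.7 against 4.09, and Fst, follistatin, which binds activins, at 177.4 against 5.28. Angptl7, at 51.3 against 1.62 CPM, was as high in mesothelial cells (55.6). Tcf23, a basic helix-loop-helix factor, was at 53.4 against 1.70 CPM in stroma, with 34.65 in myocytes. Gpc6, a cell surface heparan sulfate proteoglycan, was at 93.9 against 3.49 CPM. Ctla2a and Ednrb complete the 12, at 65.1-fold (63.5 to 66.8) and 63.8-fold (52.8 to 77.6).

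Ranked by the ratio to the highest other cell type instead, the leading genes were Tdo2, Tac2, Nog, the unnamed transcripts RP23-180A8.3 and AC157667.1, Sfrp4, Ctla2a, Penk, Gpc6 and Chodl. Nog, noggin, which blocks bone morphogenetic proteins, was at 266.3 CPM (247.5 to 286.2), 26.3-fold over stroma, the next highest type. Sfrp4, a secreted antagonist of Wnt ligands, was at 686.8 CPM (656.4 to 718.2), 13.0-fold over stroma. Penk, proenkephalin, was at 74.2 CPM against 8.01 in lymphocytes.

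At the low end, Nppc, which encodes C-type natriuretic peptide, had 1 UMI in Ctla2a cells (0.358 CPM, 0.00907 to 1.997) against 144.8 CPM in stroma. The chemokines Ccl11, Ccl7, Ccl8 and Ccl2 stood at 6.45, 5.38, 2.15 and 0.717 CPM in Ctla2a cells and at 947.4, 724.0, 641.9 and 105.9 CPM in stromal cells. Crabp1, which carries retinoic acid, was at 2.87 against 397.6 CPM. Col6a6, a collagen VI chain, was at 0.717 against 91.8 CPM. The others of the 12 smallest ratios were Nrk, Krt85, Gdpd2, RP23-293I3.6 and Crtac1, each with at most 3 UMIs in Ctla2a cells and between 63.05 and 120.3 CPM in stroma.

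Receptors and regulators of vasoactive and peptide signals were mixed. Of 26 such genes 8 reached 50 CPM in either type, with 2 at least 2-fold higher in Ctla2a cells and 4 at least 2-fold lower. The shares to set beside this list and the later ones are 5.36% higher and 14.0% lower, over all 3249 genes. Ednrb and Rxfp1 here are markers of the label, as are Rgs2, Enpp2, Ctla2a and Pi15 in the RGS, lysophospholipid, cathepsin and CAP lists. The markers were chosen with earlier results known, so their calls are no separate result of these lists. Beside Ednrb the higher one was Ramp1, a subunit of the CGRP receptor, at 288.6 against 61.0 CPM. Ramp3 and Ramp2, which direct the same receptor protein toward adrenomedullin, were at 51.6 against 1277.9 CPM and at 134.1 against 878.0. Oxtr, the oxytocin receptor, was at 10.8 against 128.9 CPM. The receptor-modifying subunits therefore pointed in opposite directions between the cell types. Of 17 RGS genes 2 reached the level, Rgs2 at 18.9-fold higher and Rgs3 at 0.134 of the stromal level.

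In lysophospholipid signalling, Enpp2 was the only 1 of 6 measured genes at least 2-fold higher, at 3.47-fold. S1pr1 and S1pr2, sphingosine-1-phosphate receptors, and Plpp1, a phosphatase that degrades lysophospholipids, were at least 2-fold lower. Among cathepsins and their inhibitors 1 of 11 was higher, the label marker Ctla2a itself. Cathepsin L, the protease that the Ctla2a protein inhibits, was equally abundant, with Ctsl at 557.0 CPM in Ctla2a cells and 524.2 in stromal cells (ratio 1.06, 1.00 to 1.12). Ctsk, Ctsh, Cstb and Ctsb were lower, from 0.243 to 0.467 of the stromal level. Of the CAP family Pi15 was higher, and Glipr2, Crispld2 and Pi16 were lower.

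Steroid receptors and response genes gave 2 higher and 2 lower of 8, beside 5.36% higher and 14.0% lower of all 3249 genes. Tsc22d3, a classic target of glucocorticoids, was at 603.6 against 46.5 CPM, which is 13.0-fold (11.8 to 14.3), and with Zbtb16 made up the higher genes. Pgr, the progesterone receptor, was at 204.0 against 435.4 CPM and so at 0.469 of stroma. Nr3c1, the glucocorticoid receptor, was at 39.1 against 50.1 CPM, and Igf1, a stromal growth factor driven by estrogen, at 1001.9 against 778.4.

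The transcription factors of the Müllerian duct and uterus were the only list with more than 5 members higher in Ctla2a cells. Of 19 measured, 7 were at least 2-fold higher and 4 at least 2-fold lower, with a median ratio of 1.62 beside 0.941 for all genes. Over all 3249 genes 5.36% were higher and 14.0% lower. The higher ones included Hoxa10 (1011.2 against 251.5 CPM, 4.02-fold), Hoxa9, Hoxa11, Hoxd10, Hoxd11 and Hand2. The Hoxa and Hoxd genes pattern the duct along its length, and Hand2 mediates progesterone action in stroma. The lower ones were Tbx3, Foxl2, Foxo1 and Osr1, at 0.354 to 0.406 of the stromal level.

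Most matrix genes at this level were lower in Ctla2a cells. Of 13 collagens 9 were at least 2-fold lower and 1 higher, with a median ratio of 0.209. Among all 3249 genes 14.0% were lower and 5.36% higher, with a median ratio of 0.941. Col1a1 was at 650.6 against 4182.0 CPM, Col3a1 at 1637.7 against 4798.7, and the collagen VI chains Col6a1 and Col6a2 at 0.200 and 0.243 of stroma. The higher one was Col14a1, at 62.7 against 19.3 CPM. Of 4 small leucine-rich proteoglycans 3 were lower and 0 higher. Decorin (Dcn) was at 1998.7 against 8859.5 CPM and lumican (Lum) at 182.4 against 1064.7, whereas Bgn, biglycan, was at 473.5 against 415.0. Of 22 matricellular and elastic fibre genes 15 were lower, among them Fbn2, Fbln2, Mfap4 and Eln at or under 0.0504 of stroma, and Efemp1 and Tnxb were higher.

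Of 11 basement membrane genes 2 were higher, 5 lower and 4 within 2-fold, beside 5.36% higher and 14.0% lower of all 3249 genes. Col4a6 was at 79.2 against 5.54 CPM, 14.3-fold (10.8 to 19.2), and Col4a5, its partner in the alpha5-alpha6 network of collagen IV, at 144.1 against 23.8, 6.06-fold. Col4a1 and Col4a2, the chains of the common network, were at 0.270 and 0.282 of the stromal level, and Col4a4 (11.8 against 51.1 CPM), Col18a1 and Hspg2 were lower as well. Of 13 metalloproteinases and inhibitors 7 were lower and 0 higher, and Mmp2 was at 342.0 against 253.0 CPM.

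Of the 8 genes of the Wnt list at 50 CPM in either type, 4 that encode secreted antagonists of the Wnt pathway or relatives of them were at least 2-fold higher, Sfrp4, Sfrp2 (410.4 against 31.7 CPM, 12.95-fold), Dkk3 (4.80-fold) and Frzb (2.31-fold). The other 4 were lower, namely the ligands Wnt4, Wnt5a and Wnt16, at 0.106, 0.217 and 0.180 of stroma, and Axin2, a target of the pathway, at 0.265. In the BMP and activin list the 2 higher genes of 12, Fst and Nog, encode antagonists, and the 7 lower ones include Inhbb (13.98 against 713.8 CPM), Inhba, Bmp2, Bmp3 and Tgfb2, which encode ligand subunits. The activin-binding protein gene Fstl1 was also lower, at 156.3 against 533.6 CPM, and the ligand genes Bmp7 and Gdf10 differed by less than 2-fold (0.518 and 0.969 of stroma). Id3, a target of BMP signals, was at 13.98 against 296.0 CPM. Of all 3249 genes 5.36% were higher and 14.0% lower. The lists were chosen with earlier results of these data known, so that these counts are descriptions.

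**Figure D3:**
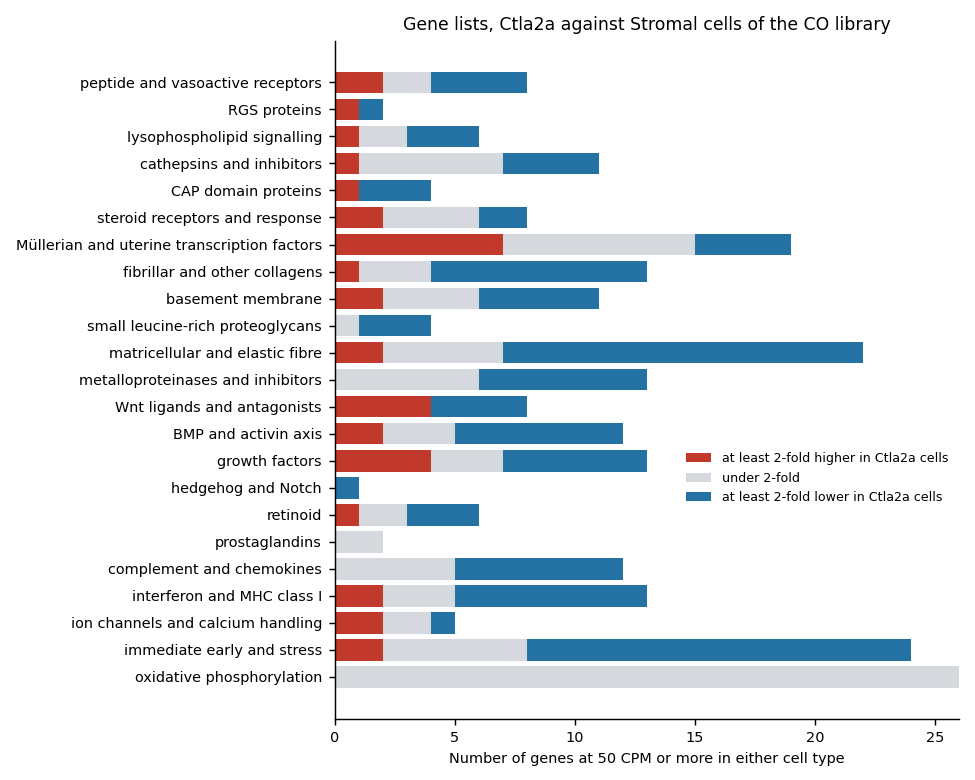
Number of genes in each list with at least 50 CPM in Ctla2a or stromal cells, split into those at least 2-fold higher in Ctla2a cells (red), those under 2-fold (grey) and those at least 2-fold lower (blue). Blue takes 15 of 22 matricellular genes and 16 of 24 immediate early genes, beside 14.0% of all 3249 genes. The 26 oxidative phosphorylation genes are all grey.

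Growth factor genes gave 4 higher and 6 lower of 13, beside 5.36% higher and 14.0% lower of all 3249 genes. Beside Igfbp3, the higher ones were Ptn, pleiotrophin (282.8 against 19.4 CPM, 14.6-fold), Pdgfc and Igf1r, and the lower ones Nrg1, Fgf2, Igfbp4, Igfbp6, Igfbp7 and Mdk. Retinoid genes gave 1 higher, Stra6, the retinol uptake receptor, at 2.21-fold, and 3 lower, of which Aldh1a1 and Aldh1a2, which make retinoic acid, were at 4.66 against 308.8 CPM and at 94.6 against 1217.1. Hes1, the only gene of the hedgehog and Notch list at 50 CPM, was at 0.273 of stroma. Neither prostaglandin gene measured, Hpgd and Ptges3, differed by 2-fold.

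Of 12 complement and chemokine genes 7 were lower and 0 higher, beside 14.0% lower and 5.36% higher of all 3249 genes. Complement C3 (325.8 against 264.7 CPM) and Cxcl12 (120.8 against 94.1) were close to the stromal level, while Cxcl14 was at 0.238 of it. Of 13 interferon and MHC class I genes 8 were lower, among them H2-K1, H2-D1, Bst2 and Isg15. Ifitm1, an interferon-induced membrane protein, was at 900.8 against 48.2 CPM, 18.7-fold (17.0 to 20.5), and Ifitm2 at 2.09-fold. Among ion channels Ano1, a calcium-activated chloride channel of pacemaker and smooth muscle cells, was 9.70-fold higher and Piezo2, a mechanically gated channel, 4.45-fold higher. Kcnk2, a stretch-sensitive potassium channel, was at 0.0345 of stroma.

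Of 24 immediate early and stress genes 16 were lower in Ctla2a cells, 2 higher and 6 within 2-fold, with a median ratio of 0.347. Beside them, 14.0% of all 3249 genes were lower and 5.36% higher, with a median ratio of 0.941. Fos was at 204.0 against 817.9 CPM, Egr1 at 111.8 against 708.1 and Hspa1a at 68.5 against 488.0, while Klf2 was 8.72-fold higher. All 26 oxidative phosphorylation genes lay within 2-fold of stroma, with a median ratio of 1.01. No cell cycle gene of the 20 listed reached 50 CPM in either type. The share of mitochondrial UMIs was a median of 8.15% in Ctla2a and 7.48% in stromal cells.

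Against all other annotated CO cells pooled, 322 of 3454 genes were at least 2-fold higher (9.32%) and 658 at least 2-fold lower (19.1%), with a median ratio of 0.847. The pool is dominated by 6866 mesothelial and 2583 epithelial cells. By this comparison all 6 markers were higher, and Rxfp1, at 783.9 against 49.1 CPM, was one of them because mesothelial and epithelial cells held little of it.

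The cells also varied among themselves. After thinning to 3000 UMIs, which kept 439 cells, Ctla2a had the highest variance over mean of 1171 genes, at 27.2 beside a median of 1.06. It was also the most abundant gene, with a mean of 110.1 UMIs, and the ratio was not corrected for the mean. Dcn (8.05), Lum (5.26), Igfbp3 (5.00), Col3a1 (3.89), Igfbp5 (3.51), Sparc (3.34) and Sfrp4 (3.30) followed, apart from Malat1, mitochondrial transcripts and RP23-81C12.3. Most of these were uneven in thinned stromal cells too, where Ctla2a again ranked first, at 22.7 of 1338 genes. Col3a1 stood there at 7.37, Sparc at 7.12, Dcn at 6.07, Lum at 5.99 and Igfbp5 at 4.46. Igfbp3 was thus among the most uneven genes, with UMIs in 50.8% of thinned Ctla2a cells and 1.38% of thinned stromal cells. Tac2 had UMIs in 16.4% of thinned Ctla2a cells and in 0 of 1303 thinned stromal cells, and Tdo2 in 8.88% of thinned Ctla2a cells. The limit on the stromal share, 0.230%, is for detection at 3000 UMIs and not for expression. In per-cell levels scaled to 10000 UMIs, Igfbp3 ran from 0 at the 25th percentile through 2.02 at the median to 15.25 at the 90th percentile and 65.1 at most. Rgs2 was more even, with 1.47, 10.6 and 23.1 at the 10th percentile, the median and the 90th percentile.

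Some of the uneven genes went together and others apart. In the 273 thinned cells with an Sfrp4 UMI the mean of Gpx3, a secreted glutathione peroxidase, was 1.90 UMIs, and in the 166 without one it was 0.717. The mean of Igfbp3 was 2.09 and 1.04 UMIs in the same groups. In the 285 cells with an Igfbp5 UMI, by contrast, the mean of Igfbp3 was 1.31, and in the 154 without one it was 2.40. Dcn averaged 4.66 UMIs in the 223 cells with Igfbp3 and 6.72 in the 216 without. Ctla2a itself averaged 103.4 and 117.0 UMIs in these last groups. The cells share 1 library, so these values describe it and carry no test.

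**Figure D4:**
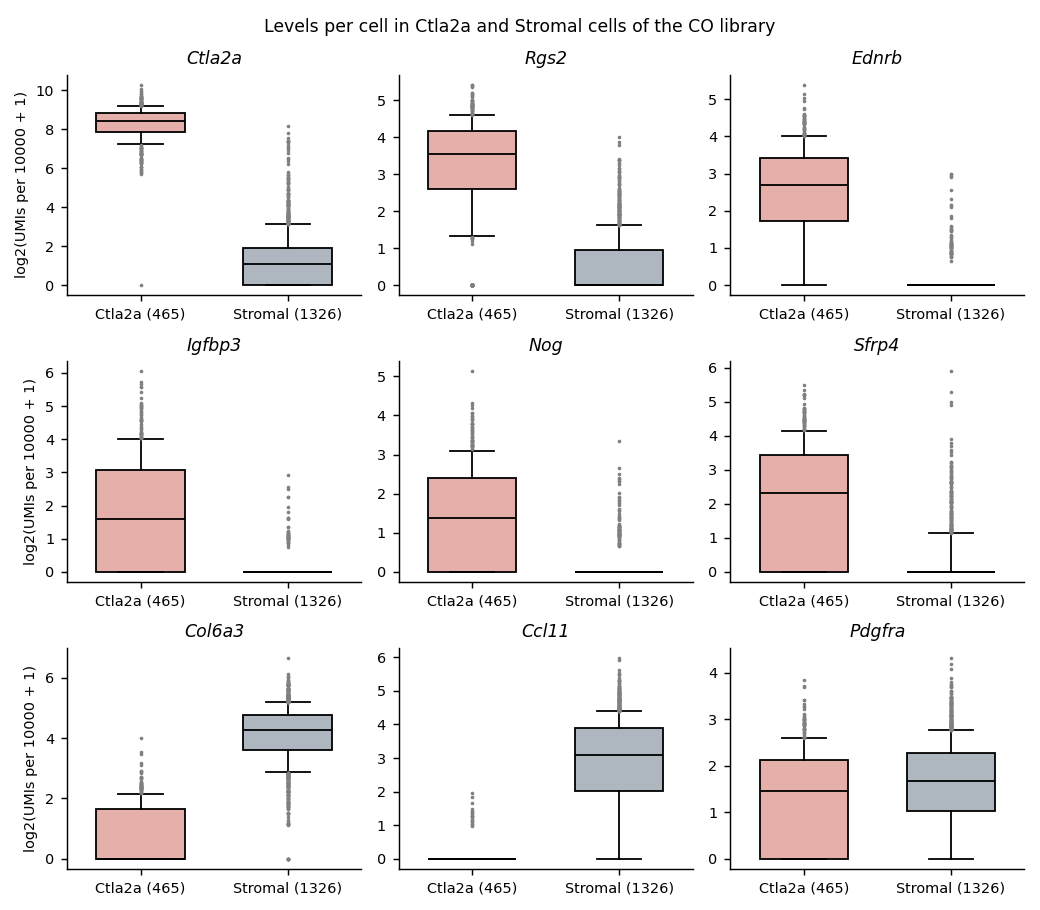
Level per cell, as log2(UMIs per 10000 + 1), of 9 genes in the 465 Ctla2a and 1326 stromal cells of the CO library, with boxes for quartiles and median, whiskers at the 10th and 90th percentiles and points for cells beyond them. Ctla2a and Rgs2 separate the types, Igfbp3, Nog and Sfrp4 are at 0 in many Ctla2a cells, and Pdgfra overlaps.

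The tissue sections are an independent readout of the genes chosen from the single cells. They held 12506177 and 11032957 UMIs (CO sections A and B) and 9117099 and 9880021 UMIs (DES sections A and B) over 1357 to 1834 spots, each of which covers several cells. The study describes a large fold in the tissue of CO section B and a limit to telling clusters apart in DES section B, and based most of its own spatial work on the sections labelled A. Of the 21 genes that are markers or lead 1 of the rankings of higher genes, 16 passed the filter on low counts. Tac2, Tdo2, Zbtb16, Gpc6 and RP23-180A8.3 did not pass, with at most 11 UMIs in any section. In a section, fewer cells of a type and less RNA per cell cannot be told apart.

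Ctla2a stood at 590.8 CPM in CO section A, 4903.2 in CO section B, 47.4 in DES section A and 64.3 in DES section B. The CO sections differed more from each other than the DES sections did, and both CO sections lay above both DES sections. The fitted change from CO to DES was −5.80 on the log2 scale (SE 1.13), which did not pass the threshold in edgeR's quasi-likelihood test (Benjamini-Hochberg adjusted p = 0.0593). Over the alternatives that keep all spots of the 4 sections and no block, the adjusted p ran from 1.33e-05 with DESeq2 to the edgeR value. The change was −6.64 without CO section A (edgeR adjusted p = 0.00357) and −3.63 without CO section B (edgeR adjusted p = 0.00418). In every fit that leaves out a CO section the lone CO section was assumed to vary like the DES sections, although the CO sections differed far more, and edgeR then called 2819 and 2336 genes in place of 747, so these p-values are likely too small. Without DES section A or B the edgeR adjusted p was 0.225 or 0.212.

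Tcf23, Ednrb and Arl4d fell in the DES sections. Tcf23 stood at 26.1 and 53.7 CPM in CO and 5.27 and 4.86 CPM in DES (log2 change −3.18, SE 0.40, edgeR adjusted p = 0.0276). Ednrb stood at 6.96 and 9.52 CPM in CO and 1.97 and 1.92 in DES (−2.28, SE 0.33, edgeR adjusted p = 0.0333). Arl4d stood at 15.0 and 25.2 CPM in CO and 6.36 and 5.36 in DES (−1.98, SE 0.32, edgeR adjusted p = 0.0401). Thus 3 of the 16 genes fell and 0 rose, beside 2.63% of all 14098 genes that fell and 2.67% that rose. Leaving out either DES section kept the fitted changes, at −3.21 and −3.16 for Tcf23, −2.27 and −2.30 for Ednrb and −2.08 and −1.90 for Arl4d. The calls were lost (edgeR adjusted p from 0.127 to 0.227), and in these fits the lone DES section was assumed to vary like the CO sections.

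The amount of muscle in the sections differed in the same direction. The 8 smooth muscle markers summed to 15290.0 and 17033.8 CPM over the CO sections and 3870.6 and 4354.7 CPM over the DES sections. Spot clusters with a muscle sum of at least 20000 CPM, a limit chosen after seeing the data, took 40.5% and 47.8% of the spots in CO and 10.5% and 7.44% in DES. Tcf23 stood at 82.1 and 133.0 CPM in these spots of CO and 52.2 and 34.8 in those of DES, and at 1.27 and 6.64 against 2.33 and 3.01 CPM in all other spots. Arl4d stood at 45.2 and 56.5 CPM in the muscle-rich spots of CO and 50.3 and 33.05 in those of DES, and at 1.62 and 6.64 against 3.61 and 3.65 CPM in the others. The CPM of both genes was thus higher in muscle-rich than in other spots of every section, as was that of Ctla2a, Rgs2 and Ednrb. The other spots were not free of muscle transcripts. Among their clusters the highest muscle sum was 10786.5 and 4723.0 CPM in CO and 13818.8 and 13832.8 in DES. In the stromal clusters it was 1049.3 and 868.2 CPM in CO and 3397.7 and 10164.2 in DES. The part of this muscle in the values of the other spots was not tested. In muscle-rich spots alone none of the 3 calls held in edgeR, with −1.39 for Tcf23 (edgeR adjusted p = 0.234), −0.27 for Ednrb (edgeR adjusted p = 0.933) and −0.37 for Arl4d (edgeR adjusted p = 0.769). In the other spots Tcf23 (−0.75, edgeR adjusted p = 0.615) and Arl4d (−0.38, edgeR adjusted p = 0.776) did not pass, and Ednrb did (−2.45, edgeR adjusted p = 0.0454). Ednrb had 18 and 19 UMIs in the whole DES sections A and B, so its values by spot type rest on few UMIs. The change of Ctla2a was −5.08 in muscle-rich spots, where it passed (edgeR adjusted p = 0.0342), and −5.37 in the others, where it did not (edgeR adjusted p = 0.111).

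The other genes had values that did not pass edgeR's test. Rgs2 stood at 65.1 and 165.3 CPM in CO and 32.5 and 32.0 in DES (−2.04, edgeR adjusted p = 0.0753). Sfrp4 stood at 47.1 and 200.2 CPM in CO and 26.2 and 30.9 in DES (−2.30, edgeR adjusted p = 0.129), and Penk at 11.4 and 150.3 against 8.34 and 8.81 (−3.42, edgeR adjusted p = 0.169). As with Ctla2a, CO section B was the high one for these 3 genes. Without it the values were −1.25 for Rgs2 (edgeR adjusted p = 0.00858), −0.95 for Sfrp4 (edgeR adjusted p = 0.0304) and −0.65 for Penk (edgeR adjusted p = 0.120), and without CO section A they were −2.54, −2.99 and −4.31 (edgeR adjusted p = 0.00359, 0.00412 and 0.00338). With 1 CO section the spread again came from the DES sections. Outside the muscle-rich spots Rgs2 was not lower in DES, at 17.45 and 26.6 CPM in CO and 30.9 and 28.2 in DES (0.19, edgeR adjusted p = 0.680). Those spots still held muscle transcripts, and the part of these in the Rgs2 values was not tested. DESeq2 on all 4 sections called Rgs2 (adjusted p = 0.000108) and Sfrp4 (adjusted p = 0.00123) and not Penk (adjusted p = 0.1105). Rxfp1 was flat, at 110.7 and 144.1 CPM in CO and 139.4 and 110.7 in DES. Fst was the only gene with both DES sections above both CO sections, at 8.45 and 6.88 against 1.68 and 3.53 CPM (1.35, edgeR adjusted p = 0.148), and it passed only in the fit without CO section B, whose spread came from the DES sections (1.95, edgeR adjusted p = 0.0306).

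For 8 of the 16 genes both CO sections lay above both DES sections, and for 1 below. In the same CPM, 17.9% of all genes had both CO sections above and 43.8% both below. Unscaled CPM put the median gene 0.20 higher in DES on the log2 scale, whereas after TMM scaling, which the tests used, the median change was −0.01. The part of scaling in this uneven background was not tested. The median over the 16 genes was −1.98 in the test and −0.80 without CO section B. It was −0.53 in muscle-rich spots alone and −0.75 in the others, each over the 15 genes that passed the filter there.

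Within the CO sections the genes did not share 1 place. Comparing the spots that the study names stromal with all other spots, Enpp2 (log2 difference 2.26, SE 0.26, edgeR adjusted p = 2.53e-07), Igfbp3 (1.71, SE 0.27, edgeR adjusted p = 3.52e-05), Ednrb (1.68, SE 0.42, edgeR adjusted p = 0.00629) and Rxfp1 (1.21, SE 0.19, edgeR adjusted p = 2.45e-05) were higher in stromal spots. Chodl (−3.79, SE 1.07, edgeR adjusted p = 0.0154), Tcf23 (−2.50, SE 0.42, edgeR adjusted p = 6.98e-05) and Rgs2 (−1.49, SE 0.24, edgeR adjusted p = 4.66e-05) were lower there. In the stromal spots of CO sections A and B, Chodl had 0 and 1 UMIs and Tcf23 1 and 12, so these 2 values rest on few UMIs. So 4 of the 16 genes were higher and 3 lower, beside 6.47% and 5.50% of 13542 genes. The authors drew the spot clusters from these counts, which likely makes the p-values too small. Among the single cells Rxfp1 was also found in stromal cells, Igfbp3 in endothelium, Ednrb and Enpp2 in pericytes and endothelium, and Tcf23 in myocytes. The part of these other cell types in the spot values was not tested. In edgeR the Ednrb call was lost without CO section A (1.22, adjusted p = 0.2725), as with DESeq2 on all sections (1.73, adjusted p = 0.0941). Without CO section B the edgeR calls of Rgs2 (−1.28, adjusted p = 0.0596) and Chodl (−6.34, adjusted p = 0.7985) were lost, with the same direction.

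Ctla2a itself showed no common direction in CO. Its level was 370.6 CPM in stromal and 601.1 in other spots of CO section A, and 9209.2 in stromal and 4510.3 in other spots of CO section B. The fitted difference was 0.15 (SE 0.25, edgeR adjusted p = 0.788), and it was 0.98 without CO section A (edgeR adjusted p = 0.00174) and −0.85 without CO section B (edgeR adjusted p = 0.0591). In the DES sections stromal spots were higher, at 86.7 and 219.4 CPM against 42.5 and 58.6 in other spots (1.55, SE 0.27, edgeR adjusted p = 0.000104). Of the 16 genes 6 were higher in DES stromal spots, beside 7.16% of all genes, and 0 lower, beside 5.66%. For 4 of the 16 genes, Ctla2a, Rgs2, Tcf23 and Sfrp4, the stromal enrichment was higher in DES than in CO by edgeR's test of the difference, and for 0 it was lower, beside 2.58% and 0.783% of all genes. For Ctla2a this call was lost without CO section A (0.58, edgeR adjusted p = 0.514). The muscle-rich spots lie among the other spots, so the spots compared with stroma held much less muscle in DES. Tcf23 stood at 27.3 and 57.4 CPM in the other spots of CO and 4.94 and 4.405 in those of DES, and Rgs2 at 66.7 and 175.2 against 31.1 and 30.5. The part of muscle in the difference was not tested.

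The authors' 10 spot clusters per section place the transcript more finely. In CO section A it was highest in cluster 6, at 2987.1 CPM, and cluster 4, at 2533.1, where 8 smooth muscle markers summed to 33942.8 and 52068.2 CPM. Cluster 9 came next, at 1783.0 CPM with a muscle sum of 40637.2. Cluster 6 also had the highest sum of the 8 stromal markers in that section, 6760.1 CPM. Cluster 2, with a muscle sum of 51922.7 CPM, held only 575.4 CPM of Ctla2a, and cluster 7, with a muscle sum of 1797.3, held 1025.8. Ctla2a was lowest in cluster 1, at 48.25 CPM, where the 5 epithelial markers were highest. In CO section B it peaked at 14123.3 CPM in cluster 7, where the muscle sum was 4723.0 CPM and Sfrp4 reached 1157.9. Clusters 3, 6 and 1 of that section followed, with muscle sums of 25879.2, 868.2 and 38562.6 CPM. The order of the clusters by Ctla2a was therefore not their order by muscle markers in either CO section.

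The DES sections also held places with more of it. In DES section B cluster 9, of 47 spots, had 1094.4 CPM of Ctla2a together with 640.1 CPM of Sfrp4, and 8 stromal markers summed to 7732.7 CPM, the highest sum of that section. In DES section A the highest value was 480.3 CPM in cluster 7, where the 6 endothelial markers summed to 790.5 CPM, the highest sum of that section. Cluster 10 of DES section B followed cluster 9, with 699.0 CPM and the highest endothelial sum of its section, 1157.7 CPM. The part of endothelium in these levels was not tested, and the CO clusters ranged from 48.25 to 14123.3 CPM. Spots with at least 1 Ctla2a UMI made up 76.3% and 99.0% of the CO sections and 19.6% and 24.3% of the DES sections.

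**Figure D5:**
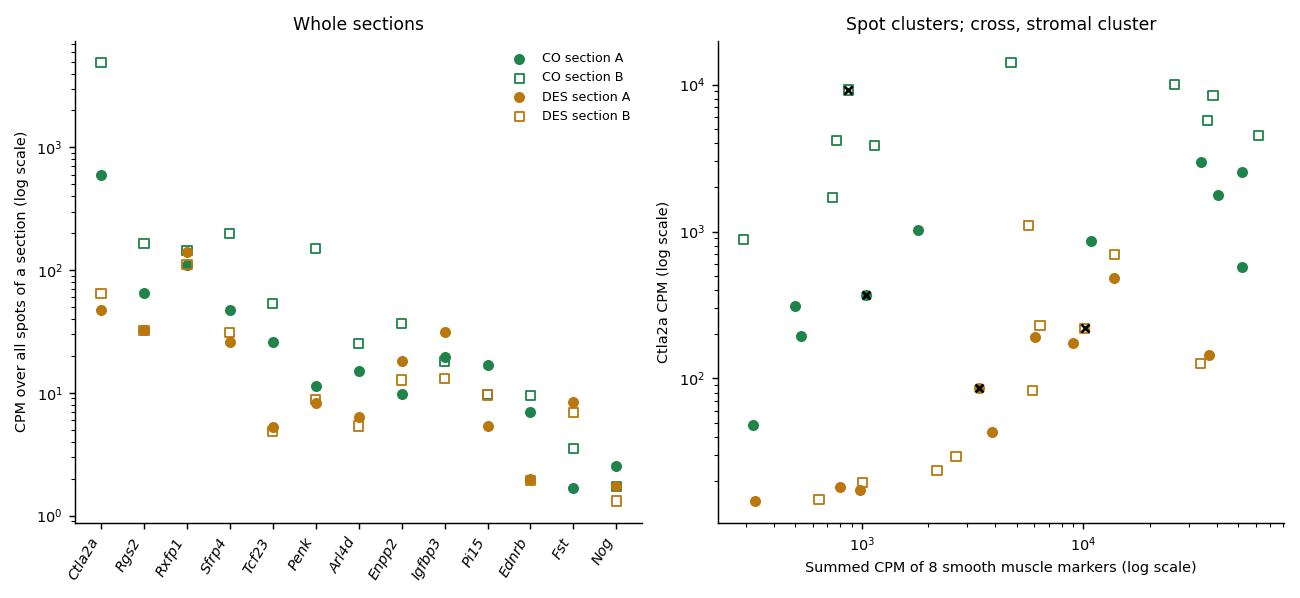
Left, CPM over all spots of each section (log axis) for 13 of the genes, with filled circles for sections A and open squares for sections B, CO in green and DES in brown. Right, Ctla2a CPM in each spot cluster against the summed CPM of 8 smooth muscle markers (both log axes), with crosses on stromal clusters and the DES cluster at 0 CPM left out. Ctla2a is at 590.8 and 4903.2 CPM in CO and 47.4 and 64.3 in DES, and Rxfp1 overlaps.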

How the data were processed

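Single-cell and Visium 3′ libraries were deposited as UMI counts per gene and cell or spot without normalization, beside metadata from the authors whose fraction of repeated reads per cell was not used. The authors counted them with Cell Ranger 3.0.1 and Space Ranger 1.2.2 on mm10, removed doublets with scran and annotated cell types. The authors dissociated the horns with trypsin, and removed the tissue left undigested. Counts were summed over cells or spots and scaled to equal totals (CPM). Ratios carry exact 95% intervals, and shares exact Clopper-Pearson intervals. Genes needed 50 CPM in either group, and a count of 0 was given a limit of 3. Cells were thinned to 3000 UMIs with a fixed seed (20230). Clusters were rebuilt with scanpy 1.11.5 and leidenalg 0.10.2. Sections were compared with edgeR 4.0.16 (TMM, filterByExpr, quasi-likelihood test, Benjamini-Hochberg at 0.05), with the section as a block for stromal against other spots. Both steps were tested on simulated data. In simulated whole sections edgeR recovered 88% of log2 changes of 2 and 17% of log2 changes of 1. For stromal over other spots of CO it recovered 73% and 26%. These section simulations gave all genes the same median spread, so genes as variable as Ctla2a are not covered. Replicates are sections of separate mice.

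The cells, the 6 markers and the 24 gene lists were chosen with earlier results of these data known. Genes named are the markers, the 12 largest and 12 smallest ratios over stroma, the 10 largest ratios over the highest other type, the stromal markers of the study, and list members at 50 CPM. Alternatives were DESeq2 1.42.0, its size factors, no count filter, each section left out in turn, sections A and B as blocks, other CPM, fold and thinning limits, Scrublet doublets left out, other weighting of cells and types, stricter cell filters, and Leiden resolutions 0.5 and 2.0. After seeing the data, spots of muscle-rich clusters were compared alone and left out, and sections were left out of the test of stromal enrichment between treatments. Some members of the lists are not reported here.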

Additional observations from a re-analysis of the deposited data

Results flagged for a closer look

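For 4 genes the enrichment in stromal over other spots differed between DES and CO sections in edgeR's test of the difference itself. On the log2 scale the difference, DES minus CO, was 3.77 for Tcf23 (SE 0.71, edgeR adjusted p = 0.000863), 2.37 for Rgs2 (SE 0.36, edgeR adjusted p = 3.55e-05), 1.89 for Sfrp4 (SE 0.38, edgeR adjusted p = 0.00205) and 1.40 for Ctla2a (SE 0.36, edgeR adjusted p = 0.0207). All 4 were relatively higher in stromal spots of DES, beside 2.58% of all 13542 genes with a positive and 0.783% with a negative difference. For Tcf23 the stromal spots held 1 and 12 UMIs in CO and 8 and 6 in DES, so its value rests on few UMIs. Stromal spots of the DES sections held 3397.7 and 10164.2 CPM of the 8 smooth muscle markers and those of CO 1049.3 and 868.2, while muscle-rich clusters, all among the other spots, took 40.5% and 47.8% of the spots in CO and 10.5% and 7.44% in DES. The part of muscle in these differences was not tested. Leaving out each of the 4 sections in turn, a check chosen after seeing the data, put the difference between 3.20 and 5.36 for Tcf23, 2.03 and 2.84 for Rgs2 and 1.30 and 3.18 for Sfrp4, and the 3 calls passed each time (highest edgeR adjusted p = 0.0211). The Ctla2a call was lost without CO section A (0.58, edgeR adjusted p = 0.514), and the value was 2.41 without CO section B, 1.85 without DES section A and 0.92 without DES section B.

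Among the 20134 CO cells without a cell type, 118 held all 6 markers (0.586%, exact 95% interval 0.485 to 0.701). They are named here because they lie outside the comparisons above, and 486 such cells held at least 4 of the markers.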

How the results depend on the processing

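Cell-level counts followed their thresholds. At a fold of 4, 249 genes differed from stroma (78 higher, 171 lower) and 430 from the other annotated cells (160 higher, 270 lower). At 20 CPM, 1125 differed from stroma (399 higher, 726 lower) and 1919 from the others (646 higher, 1273 lower). With each other cell type weighing the same, the ratios to the other cells changed side for Des (0.475), Sparcl1 (0.627), Efemp1 (1.18), Adamts4 (0.554) and Adamts12 (0.991). Thinned to 5000 UMIs, the share of Ctla2a cells with a UMI was 100% for Ctla2a, 92.1% for Rgs2, 77.6% for Pi15, 46.9% for Enpp2, 80.5% for Ednrb and 93.7% for Rxfp1. Unthinned, it was 91.4%, 78.3%, 50.7%, 87.3% and 95.3% for the last 5 genes in that order. A stricter cell filter, Scrublet and other Leiden resolutions left the share of Ctla2a cells and the rebuilt cluster within their intervals.

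For DES against CO sections edgeR called 747 genes (376 higher, 371 lower) and DESeq2 1791 (822 higher, 969 lower). Without 1 section edgeR called 3 to 2819 genes (3 to 1311 higher, 0 to 1508 lower), with 14 called without DES section A and 3 without DES section B. In muscle-rich spots alone it called 45 genes (31 higher, 14 lower), with Enpp2 at 0.12, Rxfp1 at 0.14 and Nog at 1.08, and without them 495 (282 higher, 213 lower), with Rgs2 at 0.19, Pi15 at 1.48, Igfbp3 at −0.35 and AC157667.1 at 0.13. At an unadjusted p under 0.05 edgeR with all sections had 3438. Leaving out 1 section put Enpp2 between −1.44 and 0.41, Igfbp3 between −0.72 and 0.47 and AC157667.1 between −0.98 and 0.63. For stroma of CO, edgeR called 1621 genes (876 higher, 745 lower), DESeq2 685 (434 higher, 251 lower, with Sfrp4 at −0.10), and edgeR 670 to 952 without 1 section (358 to 490 higher, 312 to 462 lower). For the difference in stromal enrichment between treatments edgeR called 456 genes (350 higher, 106 lower) and 328 to 646 without 1 section (273 to 430 higher, 55 to 216 lower). The cause was not tested. For stroma of CO, leaving out 1 section put Ctla2a between −0.85 and 0.98, Angptl7 between −6.66 and 1.81, Sfrp4 between −1.20 and 0.55, and Penk between −1.87 and 0.59.

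Sections A and B of the treatments share only a letter, and the correlation of their deviations was −0.0254 over 14098 genes. With A and B as a replicate block edgeR called 527 genes (298 higher, 229 lower), with Igfbp3 at −0.10, Ctla2a passing (edgeR adjusted p = 0.0458), and Ednrb and Arl4d not (edgeR adjusted p = 0.0564 and 0.0585). At most 7 UMIs per section were counted of Tac2, Tdo2, Zbtb16 and Gpc6.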
